A study of Mus musculus with 3 samples.

Results

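The postnatal day 7 (P7) retina was set against the ages on either side of it, P1 and P17, to ask which miRNAs were highest or lowest at P7 and which lay between the neighbouring ages. The material was retina of C57BL/6 mice (C57BL/6J in the methods) with no treatment or altered allele given in the labels, and it was the same at P1, P7, and P17 apart from age. By the labels each age was 1 small RNA library from the pooled retinas of 5 eyes, so no value here has a spread between animals and no p-value is given. Of the 1915 mature miRNAs listed, 648 had a mean of at least 1 RPM (miRNA reads scaled to a total of 1000000) over the 3 libraries, and these 648 form the comparison. The miRNAs nearest this limit were miR-1191b-5p and miR-222-5p outside it, at 0.973 and 0.98 RPM, and miR-1955-3p and miR-219c-5p inside it, at 1 and 1.00 RPM.

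A miRNA is a short RNA that guides Argonaute proteins to messenger RNAs, and its seed, bases 2 to 8, does most of the pairing with the target. A hairpin precursor gives a 5p and a 3p arm, of which usually 1 is kept as the guide. In the mouse retina, P1 falls in a period when progenitors still divide and rods are being born, P7 near the end of neurogenesis while synapses form, and P17 after the eyes have opened. The miR-183, miR-96, and miR-182 hairpins are transcribed together and are known for high levels in photoreceptors and other sensory cells. miR-124 and miR-9 are neural, and miR-17 and its relatives are abundant in dividing cells.

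For each miRNA the P7 difference was the log2(RPM + 1) at P7 minus the mean of the log2(RPM + 1) values at P1 and P17, so a miRNA that changed by equal log2 steps has a difference of 0. A difference over 1 in size, a 2-fold distance from that midpoint, was counted as above or below it. A miRNA over 2-fold above both ages was called a peak and a miRNA over 2-fold below both ages a dip. The others that lay over 2-fold below the midpoint were called P1-high or P17-high after the 1 age that exceeded P7 by over 2-fold. Those above the midpoint were called P1-low or P17-low in the same way. Both differences use the same P7 library, so anything particular to that library would move them in the same direction. Where 3 values are given together, they are those of P1, P7, and P17, in order of age. Fold differences are on the RPM + 1 scale.

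The mature sequences of the miRNAs that carry the main patterns are shown with the seed in capitals, from RefSeq (GRCm38.p6). The first 5 lay far below the midpoint at P7, and miR-29a-3p, miR-29b-3p, and miR-29c-3p share a seed.
miR-211-5p: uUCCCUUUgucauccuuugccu
miR-29a-3p: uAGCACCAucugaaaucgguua
miR-29b-3p: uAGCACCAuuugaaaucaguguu
miR-29c-3p: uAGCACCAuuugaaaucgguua
miR-1247-3p: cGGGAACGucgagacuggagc
The next 3, the 5p arms of the sensory hairpins, were among the most abundant miRNAs at P7, and their seeds differ.
miR-182-5p: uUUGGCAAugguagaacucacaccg
miR-96-5p: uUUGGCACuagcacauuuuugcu
miR-183-5p: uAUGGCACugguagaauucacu
The last 3 lay farthest above the midpoint among the miRNAs that were low at P17, and they share a seed.
miR-20a-5p: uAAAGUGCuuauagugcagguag
miR-93-5p: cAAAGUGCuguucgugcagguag
miR-17-5p: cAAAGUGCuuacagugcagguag

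In RPM no miRNA peaked at P7, and 24 dipped. That is, 0 of 648 (0%) were over 2-fold above both P1 and P17, and 24 (3.7%) were over 2-fold below both. The count over 2-fold from the midpoint was 74 below (11.4%) and 5 above (0.772%). Of the 74, 24 were dips, 29 were P1-high, and 21 were P17-high. Of the 5, 3 were P1-low and 2 were P17-low. Without a size criterion, 244 miRNAs had their lowest value at P7 and 20 their highest, while 316 lay between the ages with P1 highest and 68 between them with P17 highest.

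The middle of the distribution was itself below 0. The median P7 difference was -0.44, with quartiles of -0.72 and -0.07 and extremes of -2.72 and 1.36. The 6 arms of the sensory hairpins held 7.85%, 30.6%, and 30.2% of all reads in order of age, and the RPM of every other miRNA is a share of what remained. Median-of-ratios scaling, which sets each library by the typical miRNA in place of its total, gave size factors of 1.503 for P1, 0.862 for P7, and 0.743 for P17, and moved the median P7 difference to -0.04. A total without the sensory hairpins left it at -0.26. Most of this shift lay between P1 and P7, where the median difference went from -0.87 to -0.04, while from P7 to P17 it went from -0.05 to 0.03. After this scaling 28 miRNAs were below the midpoint (4.32%), 17 above it (2.62%), 2 were dips (0.309%), and 0 were peaks (0%). All 28 were among the 74 found in RPM, and all 5 found above the midpoint in RPM were among the 17. The lowest value was at P7 for 130 miRNAs and the highest for 117, which in RPM were 244 and 20.

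**Figure D1:**
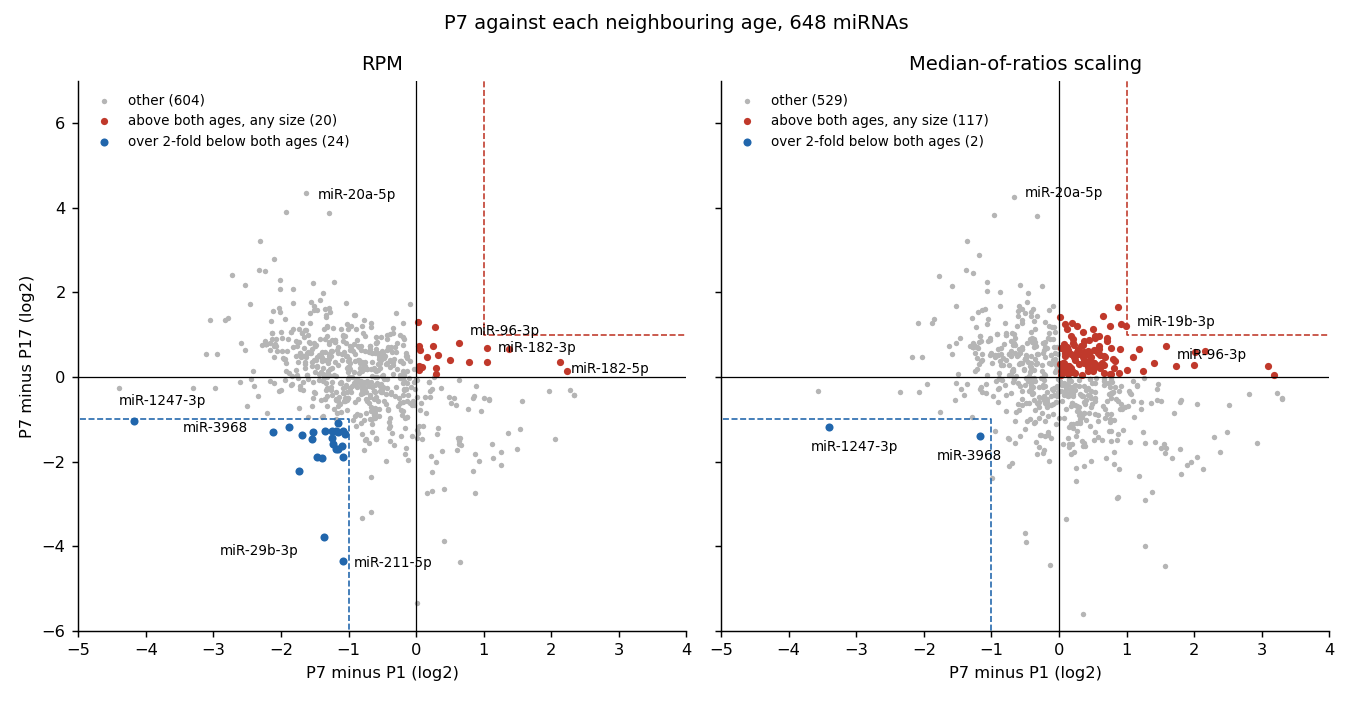
Difference of P7 from P1 (horizontal axis, log2) and from P17 (vertical axis, log2) for 648 miRNAs, in RPM on the left and after median-of-ratios scaling on the right, with dashed lines at 2-fold from both ages. The lower left corner holds 24 dips in RPM and 2 after scaling, the upper right corner holds 0 miRNAs in both, and the red points above both ages number 20 in RPM and 117 after scaling.

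The lowest P7 difference belonged to miR-211-5p, which is encoded in an intron of Trpm1, the gene of the cation channel of ON bipolar cells (chromosome 7, bases 64205831 to 64205852, + strand, GRCm38). It had 6281, 3300, and 61966 reads, or 550, 259, and 5315 RPM. P7 was thus 2.12-fold below P1 and 20.5-fold below P17, and its P7 difference was -2.72 (95% counting interval -2.77 to -2.67). The 3p arm, miR-211-3p, had 7, 8, and 762 reads, so its P7 difference of -2.66 came from P17 alone. After median-of-ratios scaling the P7 level of the 5p arm differed by -0.13 log2 from P1 and -4.44 from P17, which made it P17-high and no longer a dip. miR-204-5p, which shares the seed of miR-211-5p and lies in an intron of the related gene Trpm3, was less low, with 14661, 6967, and 9019 RPM. Its P7 difference was -0.72, and in all 3 of 4 members of this pair of hairpins were over 2-fold below the midpoint, against 11.4% of all miRNAs.

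The miR-29 family, known to target messenger RNAs of collagens and other matrix proteins, was low at P7 against P17. miR-29b-3p had 174, 68, and 997 reads, which put P7 2.57-fold below P1 and 13.7-fold below P17. miR-29c-3p had 62, 39, and 423 reads, and was P17-high. miR-29a-3p, the most abundant of the family, had 359, 633, and 12184 reads, and thus lay between the ages and nearer to P1. These differences from the midpoint were -2.57, -1.93, and -1.86, and 4 of 5 members of the family were over 2-fold below it, against 11.4% of all miRNAs. After median-of-ratios scaling 3 of 5 were below the midpoint, against 4.32% of all, and miR-29b-3p was 0.49 log2 below P1. miR-29b-3p comes from hairpins on chromosomes 1 and 6, and the 3 guide strands are nearly alike in sequence, so reads may have been divided among them by a counting rule that is not given in the sources used here.

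miR-1247-3p and miR-3968 were the dips that held under both scalings. The miR-1247 hairpin lies in an exon of the noncoding RNA Dio3os, at the edge of the imprinted Dlk1-Dio3 domain (chromosome 12, bases 110278058 to 110278078, - strand, for the 3p arm). The 3p arm had 358, 10, and 31 reads. It was 18.2-fold lower at P7 than at P1 and 2.06-fold lower than at P17, just past the limit for a dip. The 5p arm had 568, 18, and 22 reads, and did not differ between P7 and P17 beyond counting error (log2 ratio -0.42, interval -1.40 to 0.55). miR-3968 had 1611, 404, and 932 reads, and its hairpin lies antisense to Trim80 on chromosome 11. Its dip depth, the smaller of the distances to P1 and P17, was 1.31 in RPM and 1.17 after scaling, and that of miR-1247-3p was 1.04 and 1.19.

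The other dips were more even on their 2 sides. miR-1968-5p, in an intron of Grtp1, had the greatest dip depth in RPM, 1.73, but rested on 77, 17, and 114 reads. miR-3470b had 85, 26, and 120 reads and miR-3470a had 47, 12, and 74 reads, and both were over 2-fold below each age. These 2 miRNAs have closely related names and may share reads. miR-330-5p, in an exon of Eml2, was more abundant, with 3556, 1366, and 3103 reads, so that P7 was 2.89-fold below P1 and 2.47-fold below P17. miR-1224-5p, in an intron of Vwa5b2, had 249, 87, and 240 reads. In both of these the P1 and P17 values lay close together and P7 stood below them.

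miR-187-3p had 930, 451, and 1370 reads, and miR-383-5p had 1019, 476, and 1318. miR-700-3p had 560, 288, and 1015 reads, and its 5p partner had a P7 difference of -0.57. In these 3 miRNAs the distance to P17 exceeded the distance to P1. miR-338-5p, in an intron of the neuronal kinase gene Aatk, was near the limit, with 641, 339, and 808 reads and a dip depth of 1.05. The remaining dips were miR-3473a, miR-3068-3p, miR-346-5p, miR-3102-3p, miR-874-3p, and miR-574-3p, together with those of the imprinted and erythroid groups described with their lists. The first miRNA outside the limit was miR-433-5p, with a dip depth of 0.98, and the last inside it was miR-1247-3p.

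All 24 dips were lower at P7 than at both P1 and P17 under each of 5 scalings: RPM, median of ratios, TMM, a library total from which the 10 leading miRNAs of each library were removed, and a total without the sensory hairpins. The exact 95% counting interval of the read ratio lay below 1 for both ages in all 24. The same counts, in RPM, had chosen these 24 by a 2-fold margin. No scaling moved P7 against either age by as much, so both results were largely fixed by that choice and are not separate support. The 2-fold margin depended on the scaling. Of the 24, 2 were still dips by median of ratios, 2 by TMM, 8 with the total lacking the leading miRNAs, and 11 with the total lacking the sensory hairpins. Those that were lost fell short of 2-fold against P1, except miR-451a, which with the total lacking the leading miRNAs fell short against P17.

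**Figure D2:**
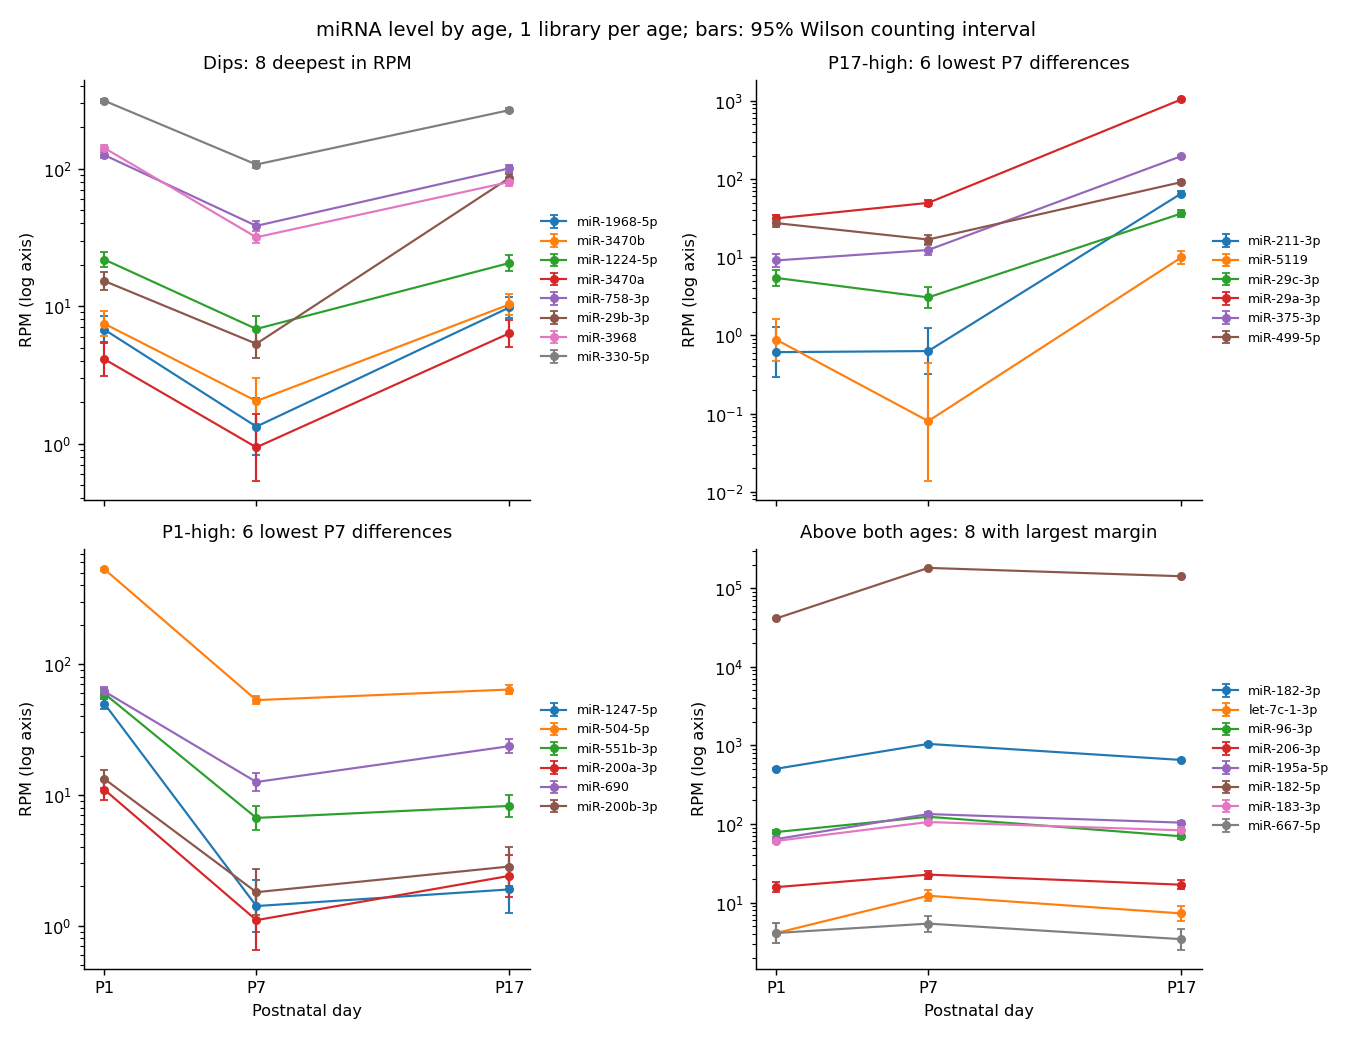
RPM (log axis) at P1, P7, and P17 for the 8 miRNAs of greatest dip depth, the 6 P17-high and the 6 P1-high miRNAs of lowest P7 difference, and the 8 miRNAs farthest above both ages, with 95% Wilson counting intervals and 1 library per age. The dips form a V, miR-211-3p is at its P1 level and miR-29a-3p at 49.6 RPM by P7, and miR-504-5p goes from 532 to 53.1 RPM. The lines of the last panel rise from P1 to P7, over 2-fold in some, and fall by less than 2-fold to P17.

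At P7 the 21 P17-high miRNAs lay within 2-fold of their P1 level or above it, which follows from how they were defined. Besides miR-211-3p and the miR-29 members, miR-375-3p, known from pancreatic islets and neuroendocrine cells, had 104, 158, and 2292 reads. The arms of miR-490 had 34, 44, and 333 reads (5p) and 25, 35, and 272 reads (3p). miR-124-3p, the abundant neuronal miRNA, had 1544, 2055, and 12777 RPM. These 4 lay between the ages and far closer to P1, with P7 differences of -1.74, -1.29, -1.24, and -1.11. miR-5119 had 10, 1, and 116 reads, and the single read at P7 gives it no usable position relative to P1. miR-184-3p, which is abundant in lens and cornea, had 1151, 1519, and 6633 reads and lay just past the limit.

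At P7 the 29 P1-high miRNAs likewise lay within 2-fold of their P17 level or above it. miR-504-5p, in an intron of Fgf13 on the X chromosome, had 6079, 677, and 746 reads. miR-551b-3p, in an intron of Egfem1, had 679, 85, and 96 reads. miR-10a-5p and miR-10b-5p, from the Hox clusters and alike in their seed ACCCUGU, had 640, 169, and 192 reads and 688, 131, and 125 reads. In these 4 the P7 and P17 values were within 1.3-fold of each other on the RPM + 1 scale, and P1 stood above both. miR-92b-3p had 5141, 1072, and 1134 reads, and miR-152-3p had 7751, 2402, and 2467. miR-690 had 706, 160, and 275 reads and came close to a dip, with a depth of 0.86. miR-7b-5p, a miRNA of neurons and neuroendocrine cells, had 19881, 8892, and 13089 reads, the most reads at P7 of this class, and was just past the limit.

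The sensory hairpins were the group farthest above the midpoint. Their list had 6 of 6 members above the median of all miRNAs and 5 of 6 above both ages, against 20 of all 648. The median P7 difference was 0.80, and 2 of 6 were over 2-fold above the midpoint, against 0.772% of all. miR-182-5p was the most abundant miRNA at P7, with 41292, 181186, and 141917 RPM. miR-96-5p had 8862, 41476, and 37574 RPM. Both were over 4-fold above P1 and only 1.28-fold and 1.10-fold above P17, so they were P1-low. miR-183-5p, from the same transcript, had 27700, 81732, and 121650 RPM and was highest at P17.

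The minor arms of these hairpins stood out more on the P17 side. miR-182-3p had 5770, 13334, and 7613 reads, and its P7 level was 2.07-fold above P1 and 1.60-fold above P17. This was the greatest peak height in RPM, 0.68 log2. miR-96-3p had 904, 1579, and 814 reads, and was 1.56-fold above P1 and 1.76-fold above P17. miR-183-3p had 697, 1353, and 970 reads and lay less far above P17. The 3 hairpins lie within 4 kb on chromosome 6 (bases 30165923 to 30169732, - strand).

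The other miRNAs above both ages also fell short of a peak. let-7c-1-3p, the minor arm of a let-7 hairpin, had 47, 156, and 85 reads. Its peak height of 0.67 was close to the 0.68 of miR-182-3p. miR-195a-5p had 735, 1709, and 1214 reads and miR-497a-5p had 508, 675, and 366 reads. They share the seed AGCAGCA with miR-15 and miR-16 and come from 1 cluster on chromosome 11, and their peak heights were 0.36 and 0.25. miR-206-3p, known from skeletal muscle, had 180, 290, and 197 reads. In all, 20 miRNAs were above both ages in RPM, and 19 of them were so under all 5 scalings. RPM, by which the 20 were chosen, is 1 of the 5, and the others raise P7 against P1, so this is not separate support. The exception was miR-124-5p, which after median-of-ratios scaling lay 0.02 log2 below P17.

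The largest P7 differences came from members of the miR-17 seed family, which did not peak. miR-20a-5p, from the Mir17hg transcript on chromosome 14, had 40688, 14734, and 653 reads. Its P7 level was 3.08-fold below P1 and 20.3-fold above P17, which put it 1.36 log2 above the midpoint. miR-93-5p, from within Mcm7 on chromosome 5, had 39357, 17940, and 1094 reads and a P7 difference of 1.30. miR-17-5p had 26291, 7741, and 460 reads and was just short of the limit at 0.99. Thus the order of the ages was the same in these 3, and the greater part of the log2 difference between P1 and P17 lay after P7. In linear RPM the larger drop came before P7. All 3 mature sequences have the seed AAAGUGC, and across the 6 members with that seed the P7 differences ran from -0.24 to 1.36 with a median of 0.75.

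miR-19a-3p and miR-19b-3p of the same clusters were close to their P1 level at P7 in RPM. miR-19b-3p had 1409, 1434, and 584 RPM, and miR-19a-3p had 599, 565, and 169 RPM. After median-of-ratios scaling miR-19b-3p was 0.99 log2 above P1 and 1.21 above P17, which was the greatest peak height on that scale. By TMM its peak height was 1.01, which made it a peak. With the total lacking the leading miRNAs the 1 peak was miR-96-3p, with 1.07. The full list of the miR-17-92 hairpins and their paralogs had 22 members past the filter. Of these, 2 were above the midpoint and 0 below it, against 0.772% and 11.4% of all miRNAs. In the list 19 lay above the median of all miRNAs, and the median P7 difference was 0.11.

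In bulk retina, fewer cells of a type and less RNA per cell cannot be told apart, and the same holds for each list given next. The Dlk1-Dio3 locus, a maternally expressed miRNA domain on chromosome 12, had 86 members past the filter. Their median P7 difference was -0.49, close to the -0.44 of all miRNAs, and 9 of 86 (10.5%) were below the midpoint against the 11.4% of all. The dips of the locus were 4 of 86 (4.65%), against 3.7% of all. They were miR-758-3p with 1432, 489, and 1171 reads, miR-433-3p with 6004, 2826, and 6259, miR-770-3p with 2146, 1065, and 2431, and miR-431-3p with 379, 194, and 445. Of these, miR-770 lies in an exon of Meg3 and miR-433 lies antisense to Rtl1. Of the 86, 55 were below both ages by any margin in RPM and 24 after median-of-ratios scaling.

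The epithelial list, which holds miRNAs of surface epithelia, had 3 of 6 members below the midpoint, against 11.4% of all miRNAs, and a median of -0.97. miR-200a-3p had 125, 14, and 28 reads, and miR-200b-3p had 151, 23, and 33. miR-205-5p, which defines corneal and skin epithelium, had only 31, 4, and 8 reads. The summed level of the list was 402, 276, and 653 RPM, lowest at P7. Its 2 most abundant members did not follow the sum, since miR-203-3p was lower at each later age (253, 150, and 75.7 RPM) and miR-184-3p was higher at each later age (101, 119, and 569 RPM).

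The muscle and liver list had 3 of 5 members below the midpoint, again against 11.4%, a median of -1.03, and sums of 167, 109, and 337 RPM. miR-1a-3p of striated muscle had 1278, 831, and 2533 reads, miR-133a-3p had 55, 27, and 70, and miR-499-5p, in an intron of Myh7b, had 312, 215, and 1065. miR-206-3p of skeletal muscle went the other way, with 180, 290, and 197 reads and a P7 difference of 0.45. The liver miRNA miR-122-5p had 66, 29, and 42 reads and was short of the limit at -0.77, so those below the midpoint were muscle miRNAs. Against 3.7% of all miRNAs, the erythroid list had 1 dip among its 6 members. This was miR-451a with 520, 149, and 325 reads, while miR-486a-5p, of the same cells, had 1311, 1311, and 1454. The sums of the erythroid list were 279, 221, and 288 RPM. In that list miR-486a-5p and miR-486b-5p had the same P7 difference, -0.22, so their reads may be counted under both names. The sum of each of these 3 lists was lowest at P7, and the part of such tissue in the dips was not tested. A lowest sum at P7 was not particular to them. The let-7, miR-30, vascular, Dlk1-Dio3, neuronal maturation, and miR-204 and miR-211 lists had it too.

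The vascular list, with miR-126a, miR-143, and their like, had 0 of 21 members over 2-fold from the midpoint in either direction, against 79 of all 648 (12.2%), and a median of -0.53. miR-126a-3p of endothelial cells had 13994, 45262, and 96661 reads, near equal log2 steps in RPM, and a P7 difference of 0.15. After median-of-ratios scaling its P7 difference was 0.59, so the steps were then less equal. Among neural markers, miR-9-5p had 144259, 125762, and 74010 RPM and a P7 difference of 0.28. In contrast, miR-124-3p lay over 2-fold below the midpoint, with a P7 difference of -1.11. Both positions depended on the scaling. By median of ratios miR-9-5p lay above both ages, with a P7 difference of 0.72. On that scale miR-124-3p was at -0.67, within 2-fold of the midpoint. The immune list had 0 of 8 members over 2-fold from the midpoint, where 12.2% of all miRNAs were, and the myeloid marker miR-223-3p had 2, 3, and 7 reads, too few to place.

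**Figure D3:**
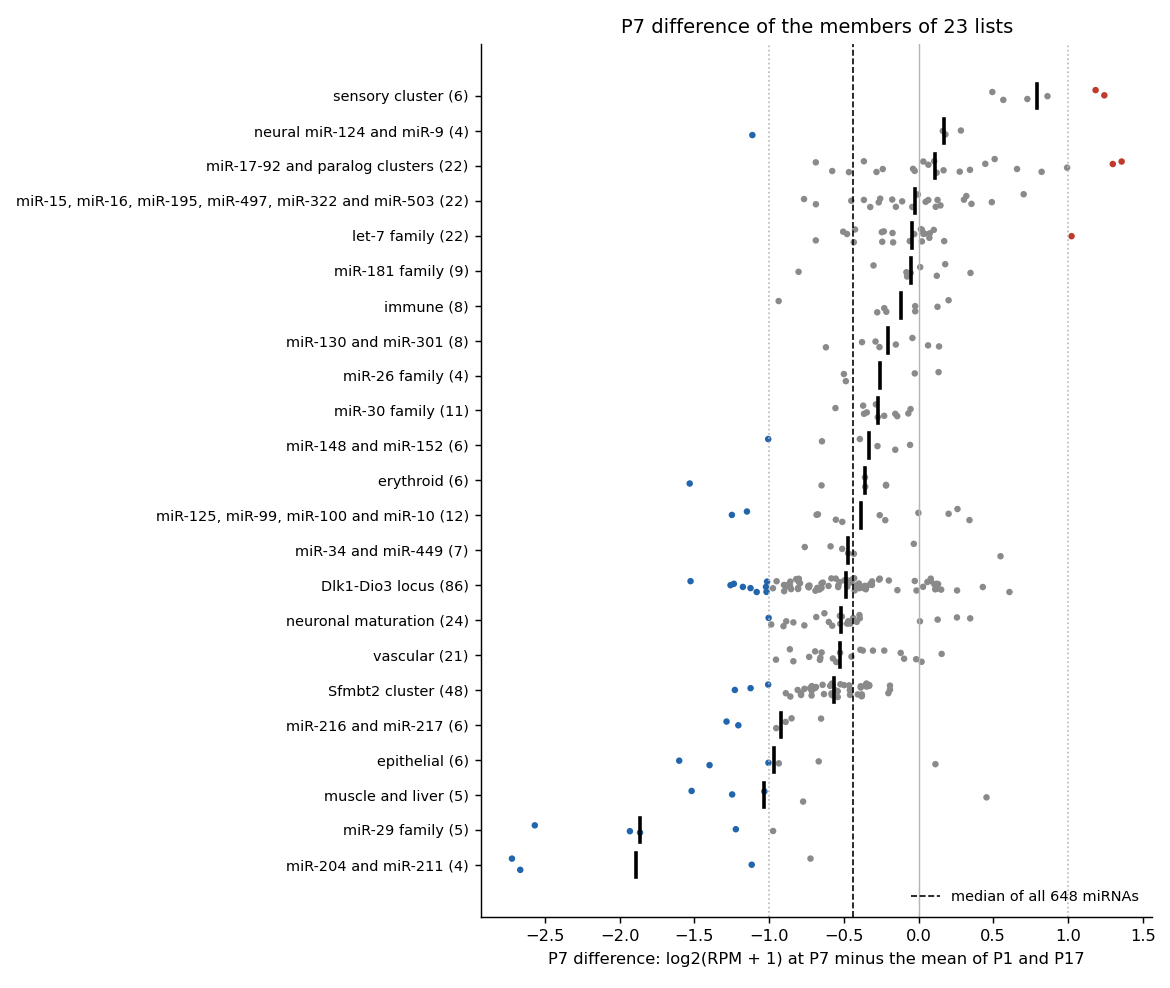
P7 difference in log2(RPM + 1) of each member of 23 lists (points, number past the filter in parentheses), with the list median as a black bar and the median of all 648 miRNAs as a dashed line. The sensory list lies to the right with a median of 0.80, and the miR-29 and the miR-204 and miR-211 lists to the left with -1.86 and -1.89.

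Relative to the median of all miRNAs, 21 of 23 lists stayed on the same side after median-of-ratios scaling. The erythroid list went from above that median to below it, and the miR-34 and miR-449 list, which lay close to it in both, from below to above. After median-of-ratios scaling, where the median of all miRNAs was -0.04, the sensory list had a median of 1.23, the miR-17-92 list 0.55, the miR-29 list -1.44, and the miR-204 and miR-211 list -1.49. The epithelial and the muscle and liver lists had medians of -0.64 and -0.73, with 2 of 6 and 1 of 5 below the midpoint, against 4.32% of all.

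The 2 arms of a hairpin come from 1 precursor, and 191 hairpins had both arms past the filter. Across these hairpins, which are not independent and share the 3 libraries, the P7 differences of the arms had a Pearson r of 0.67 and a Spearman rho of 0.57. Both arms were below the midpoint in 7 hairpins, miR-211, miR-1247, miR-29c, miR-330, miR-431, miR-433, and miR-490, and only 1 arm in 23. In no hairpin were both arms dips, and in 11 only 1 arm was. Of all 648 single miRNAs, 11.4% were below the midpoint and 3.7% were dips. Some hairpins also repeat an identical arm, as with miR-199a-3p and miR-199b-3p.

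Some hairpins had arms that differed. In miR-124 the 5p arm had 1205, 1480, and 1416 RPM, while the 3p arm reached its high level at P17 only. The log2 ratio of 5p to 3p reads was -0.36 at P1, -0.47 at P7, and -3.17 at P17. In miR-20a it was 6.93, 6.71, and 4.05, and in miR-93 it was 7.02, 7.09, and 5.12, so that in these 3 the 5p share was lower at P17 than at both earlier ages. In miR-149, whose 5p arm had far more reads, the ratio was 8.56, 8.52, and 12.61. Its P7 value minus the mean of P1 and P17 was -2.06, farther apart than the arms' P7 differences of -0.99 and 0.13. Such a gap arises when reads are few, so counting error in the 3p arm limits this ratio. In miR-667 the 5p share was highest at P7, with log2 ratios of -1.89, -0.19, and -1.45, but the 5p arm had only 47, 69, and 40 reads.

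**Figure D4:**
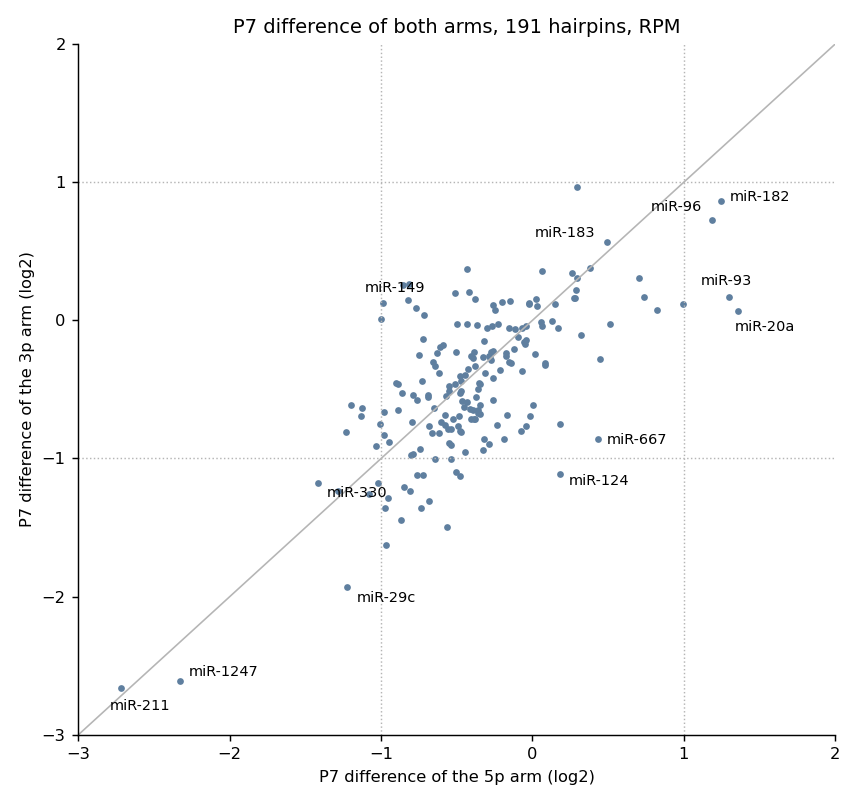
P7 difference (log2) of the 5p arm on the horizontal axis and of the 3p arm on the vertical axis for 191 hairpins in RPM, with the diagonal of equal values and dotted lines at 2-fold from the midpoint. Points gather along the diagonal (Pearson r of 0.67), with miR-211 and miR-1247 at the lower left, and miR-124, miR-20a, and miR-93 to the right of the diagonal.

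A RefSeq mature sequence was matched to 540 of the 648 miRNAs, including 20 of the 24 dips. The median GC content of these 20 was 57.1%, and that of all 540 was 47.8%, and 12 of the 20 were in the highest of 3 equal GC groups. Over the 540 miRNAs the P7 difference had a Pearson r of -0.16 with GC content, and over the 648 it had an r of 0.12 with log2 mean RPM, given as descriptions since all miRNAs share the 3 libraries. The first base was U in 8 of the 20 dips (40%) and in 216 of the 540 (40%). Of the 24 dips, 5 (20.8%) had names that give no arm, as in miR-3968 and miR-3470b, against 50 of 648 (7.72%). Of the sequences that could be placed, 11 of 20 dips (55%) and 253 of 540 (46.9%) lay within protein-coding genes on the same strand.

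Neighbouring hairpins gave 3 clusters in which every member was over 2-fold below the midpoint or nearly so. These were miR-29a with miR-29b-1 on chromosome 6 (median -2.22), miR-29b-2 with miR-29c on chromosome 1 (-1.58), and miR-200a with miR-200b on chromosome 4 (P7 differences of -1.60 and -1.40). The single count of miR-29b-3p (-2.57) is entered in both miR-29 clusters, so these 2 are not separate observations. On chromosome 12, bases 109563710 to 109595387 of the Dlk1-Dio3 locus held 20 members, of which 6 were below the midpoint and 3 were dips. Of all miRNAs 11.4% and 3.7% were, and of the whole locus 10.5% and 4.65%. The larger neighbouring group of the locus, bases 109709065 to 109747949, had 56 members with 3 below the midpoint and 1 dip.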

How the data were processed

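Small RNA of mouse retina at P1, P7, and P17 was sequenced as 1 library per age from pooled retinas of 5 eyes, with ages taken from the labels. The paper gives n = 5 per group for this sequencing, which was read here as the 5 pooled eyes. The paper's methods name adaptor and quality trimming and HISAT2 on mm10, whereas the submitters' processing notes list FastQC and BWA, so the aligner is uncertain. The miRNA annotation and counting rule are not given in the sources used here. The authors deposited raw read counts of 1915 miRNAs per library and RPM values, which equalled each count over the library's summed miRNA count to within 0.0192 RPM.

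Library totals were 11426320 (P1), 12759995 (P7), and 11659722 (P17) reads, so that 3 reads, taken as the floor, were 0.263, 0.235, and 0.257 RPM. The median count over the 648 miRNAs was 417.5, 223.5, and 200 reads. RPM + 1 was log2 transformed, and fold differences are on that scale. Size factors used the 644 miRNAs with reads in every library, and TMM factors came from edgeR 4.0.16 in R 4.3.3. Other steps used Python 3.11.15 with numpy 2.4.6, pandas 2.3.3, scipy 1.17.1, and matplotlib 3.10.9, and the contrast was tested on simulated data. Intervals are 95% Wilson (RPM), exact binomial (read ratios), and delta-method (P7 difference) intervals. They cover counting error only, since no molecular identifiers were used and PCR copies count as reads.

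The members, the 23 lists, and the tests were chosen with earlier results of these data known. Named miRNAs were the 10 greatest peak heights and dip depths in RPM and after median-of-ratios scaling, the 5 highest and lowest P7 differences, the 5 most abundant at P7, up to 4 members of each list, and the other arms of these. The further dips, P1-high, and P17-high miRNAs, markers, and miR-378, miR-1298, and miR-494 were chosen after their values were seen. Positions and host genes came from GENCODE vM21 and RefSeq (GRCm38.p6).

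The alternatives were median-of-ratios and TMM scaling, a library total that omits the 10 leading miRNAs of each library (13 in all), pseudocounts of 0.1 and 5 RPM, no filter and a filter of 10 RPM, a midpoint weighted by days or taken on linear RPM, fold criteria of 1.5 and 4, and exact counting intervals. A total that omits the sensory hairpins (miR-183, miR-96, miR-182) was added after seeing the data.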

Additional observations from a re-analysis of the deposited data

How the results depend on the processing

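With 1 library per age, the values rest on 3 pools and a P7 library cannot be left out. No paired analysis was possible because no age was sequenced more than once. Counts depended on the scaling and on the fold criterion. Against 5 miRNAs above the midpoint, 74 below, 0 peaks, 24 dips, and a median of -0.44 in RPM, median-of-ratios scaling gave 17, 28, 0, 2, and -0.040, TMM gave 19, 26, 1, 2, and -0.020, and a total that omits the 10 leading miRNAs of each library gave 21, 36, 1, 9, and -0.042. A total that omits the sensory hairpins, added after seeing the data, gave 12 above, 47 below, and 11 dips. A pseudocount of 0.1 RPM gave 10 above, and one of 5 RPM gave 42 below and 10 dips. Without an abundance filter the median was -0.17. A fold criterion of 1.5 gave 17 above, 230 below, 3 peaks, and 73 dips, and one of 4 gave 0 above, 6 below, and 0 dips. With the midpoint taken on linear RPM, 0 miRNAs were above and 157 below, and miR-20a-5p (-0.65) and miR-93-5p (-0.33) changed sign, since a linear mean lies above the mean of logs. Of 56 alternative values for these quantities, 30 moved, 16 of them upward. Of 1128 values for 141 named miRNAs, 438 moved up, 122 moved down, and 2 reversed, and of 184 list medians 90 moved. Below about 20 reads at P7, as for miR-1247-3p, miR-1968-5p, and miR-3102-3p, counting error limits the fold.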

Other observations

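Where 3 values are given together, they follow the ages. Of all miRNAs, for reference, the median was -0.44 in RPM, 11.4% were over 2-fold below the midpoint, and 0.772% were over 2-fold above it. The neuronal maturation list, with miR-128, miR-138, miR-129, and others of synapse-bearing neurons, had 24 members past the filter, a median P7 difference of -0.52, and 1 member, miR-7b-5p, over 2-fold below the midpoint. The Sfmbt2 cluster, a large group of repeated hairpins within an intron of Sfmbt2, had 48 members with a median of -0.56 and 3 below the midpoint, and its summed level was 4870, 1398, and 858 RPM. Members such as miR-466b-3p, miR-466c-3p, and miR-466p-3p had identical P7 differences (-0.71), so this count and sum may hold the same reads more than once. The miR-216 and miR-217 list had 6 members with a median of -0.92, of which 2 were below the midpoint, and miR-216a-3p had 1589, 194, and 118 reads. The let-7 list had 22 members, a median of -0.04, and 1 member above the midpoint, let-7c-1-3p. The list of miR-15, miR-16, and their relatives had 22 members with a median of -0.02 and 0 over 2-fold from the midpoint. The medians of the other lists were -0.05 for miR-181, -0.21 for miR-130 and miR-301, -0.26 for miR-26, -0.27 for miR-30, -0.33 for miR-148 and miR-152, -0.38 for miR-125, miR-99, miR-100, and miR-10, -0.47 for miR-34 and miR-449, -0.36 for the erythroid list, -0.12 for the immune list, and 0.17 for miR-124 and miR-9. After median-of-ratios scaling these 10 medians ran from -0.19 for the erythroid list to 0.61 for miR-124 and miR-9.

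Among the 17 miRNAs above the midpoint after median-of-ratios scaling were miR-378a-3p, miR-378c, and miR-378d, singled out after their values were seen. miR-378a, whose hairpin lies in an intron of Ppargc1b, is known from mitochondrial metabolism. miR-378a-3p had 6803, 38514, and 46944 reads, miR-378c had 1277, 7280, and 8947, and miR-378d had 1003, 5453, and 6131. P7 was thus far above P1 and a little below P17 in all 3, and their P7 differences in RPM were 0.96, 0.96, and 0.99. The 3 names share most of their mature sequence, and reads may have been divided among them. miR-1298-5p, with 72, 353, and 407 reads, had the same order, whereas miR-494-3p had 893, 810, and 252.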
